A study of Mus musculus with 6 samples.

Results

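Genes of DNA replication and mitosis were examined in the left ventricles of 6 mice under a pressor stress. Of the 13384 genes in the count table, 62 belonged to this set. They were chosen by symbol and not by a cut on measured values, though with earlier results of these data known. They were 31 replication genes, 23 mitosis genes, and 8 cyclin and kinase genes of the G1 phase that precedes replication. The replication genes were 8 of the MCM helicase family, 5 of the origin recognition complex, 16 polymerase, clamp and clamp loader genes, and 2 ribonucleotide reductase genes. The mitosis genes were 13 centromere protein genes, 7 mitotic cyclin, kinase and spindle genes (Mki67 and Top2a among them) and 3 SMC chromosome genes. Another 11 symbols that the same rule takes from the mouse annotation, Ccnb1, Orc1 and Mcm10 among them, had no row of that name in the count table. They were thus not analysed here.

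The knockout group was 3 adult Cygb(-/-) mice, which lack cytoglobin in every cell type of the heart and body. The control group was 3 adult Cygb(+/+) littermates. All 6 had received angiotensin II at 1.5 mg/kg/day for 2 weeks (14-day osmotic pump under the skin), so no group here shows the unstressed heart. Each library held the polyadenylated RNA of 1 mouse and from 23190864 to 30354857 counts, and the question was which transcripts of the stressed ventricle differ with the genotype.

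Adult heart muscle cells rarely divide, and most cycling cells of a stressed ventricle are non-muscle cells such as fibroblasts, endothelial cells and leukocytes. Replication begins when the origin recognition complex loads the MCM helicase onto DNA, and the polymerases then copy it along a sliding clamp, PCNA, that the RFC complex places. In mitosis the condensins and topoisomerase II shape the chromosomes, the kinetochore built on CENP-A attaches them to the spindle, and cyclin B with CDK1 drives the entry. Replication genes are known targets of the E2F factors, and many mitosis genes carry CCAAT boxes and a cell cycle homology region, CHR, bound by the MuvB complex with B-MYB and FOXM1.

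Promoter windows of 300 bases (250 before and 50 after the start site) from RefSeq, GRCm38.p6, were found for 54 of the 62 genes. They are shown for the pair of genes with the smallest p in each of the mitosis and replication classes, to set the letters of both kinds of promoter side by side. Capitals mark a CCAAT box (CCAAT or ATTGG), a CHR element (TTTGAA or TTCAAA) or an E2F site (TTGGCGC as 1 spelling, TTCCCGC as another, with TTGCCGC and with TTCGCGC, and the reverse complement of each). The windows lie at chr1:189688037-189688336, minus strand, for Cenpf, chr11:99024140-99024439, minus strand, for Top2a, chr2:132815891-132816190, plus strand, for Mcm8, and chr12:69228141-69228440, minus strand, for Pole2.
Cenpf: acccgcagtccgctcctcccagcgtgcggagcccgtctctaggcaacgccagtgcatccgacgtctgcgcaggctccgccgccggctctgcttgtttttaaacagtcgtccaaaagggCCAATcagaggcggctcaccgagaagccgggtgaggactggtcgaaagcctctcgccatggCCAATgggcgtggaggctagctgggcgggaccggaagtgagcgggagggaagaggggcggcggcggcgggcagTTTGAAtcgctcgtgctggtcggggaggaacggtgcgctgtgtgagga
Top2a: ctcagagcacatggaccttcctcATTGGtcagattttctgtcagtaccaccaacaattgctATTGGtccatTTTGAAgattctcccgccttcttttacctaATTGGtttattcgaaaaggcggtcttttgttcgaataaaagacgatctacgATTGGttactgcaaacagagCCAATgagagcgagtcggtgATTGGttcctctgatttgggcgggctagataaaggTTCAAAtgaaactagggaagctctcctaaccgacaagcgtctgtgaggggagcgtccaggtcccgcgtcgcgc
Mcm8: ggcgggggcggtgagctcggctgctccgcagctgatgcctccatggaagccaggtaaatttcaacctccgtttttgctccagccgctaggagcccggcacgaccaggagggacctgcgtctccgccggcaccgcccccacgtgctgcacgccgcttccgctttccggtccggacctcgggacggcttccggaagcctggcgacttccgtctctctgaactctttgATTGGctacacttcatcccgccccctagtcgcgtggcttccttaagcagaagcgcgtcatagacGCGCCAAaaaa
Pole2: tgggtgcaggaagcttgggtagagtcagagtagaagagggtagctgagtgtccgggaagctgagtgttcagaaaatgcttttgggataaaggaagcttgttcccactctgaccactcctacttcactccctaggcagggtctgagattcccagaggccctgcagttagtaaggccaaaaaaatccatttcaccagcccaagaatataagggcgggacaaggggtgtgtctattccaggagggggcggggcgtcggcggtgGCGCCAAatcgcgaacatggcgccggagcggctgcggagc
In the Cenpf window, CCAAT boxes began 132 and 71 bases before the start, and a CHR element began at base 3 after it. Top2a had 6 CCAAT boxes in both orientations and 2 CHR elements, at 179 and 23 bases before the start. Mcm8 and Pole2 each had 1 E2F site, at bases 40 and 11 after the start, and no CHR element. Mcm8 also had 1 CCAAT box, 25 bases before the start, and Pole2 had none.

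The classes as a whole differed in these letters. A CHR element was in the window of 10 of 21 mitosis genes (47.6%) and of 2 of 28 replication genes (7.14%), against 14.1% of the 10307 genes of the count table with a window. An E2F site was in that of 18 of 28 replication genes (64.3%) and of 6 of 21 mitosis genes (28.6%), against 19.0% of all. CCAAT boxes were in 64.3% of replication and 61.9% of mitosis genes, against 42.7%. Genes with several windows counted as holding a motif if any window did, and overlapping matches were allowed. A match describes letters only and shows no binding.

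No replication or mitosis gene passed the test between the genotypes. In edgeR's quasi-likelihood test 0 of 62 had an adjusted p under 0.05, where 0.112% of all genes passed. At an unadjusted p under 0.05, 16 of the 62 were higher in the knockout and 1 was lower. Of all genes, 10.2% were higher and 8.94% lower at that level, so 25.8% of the members stood against 10.2% on the higher side. Over both directions that was 27.4% of the members against 19.2% of all genes. The excess over both directions was not seen without knockout replicate 1 (14.5% against 13.7%) or without knockout replicate 2 (14.5% against 17.1%). The share on the higher side alone is not given here for those fits. The 17 genes were Cenpf, Top2a, Mki67, Prc1, Kif11, Ccna2, Smc2, Cenpe, Cenpj and Cenpb of mitosis, Mcm8, Pole2, Pold3, Orc2 and Orc4 of replication, and Cdk6 and Ccne2 of G1. Limma-voom also called 0 members, with 15 at an unadjusted p under 0.05. DESeq2 called 4 of the 62 higher, Cenpf, Top2a, Mki67 and Cdk6, where it called 2.68% of all genes higher.

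**Figure D1:**
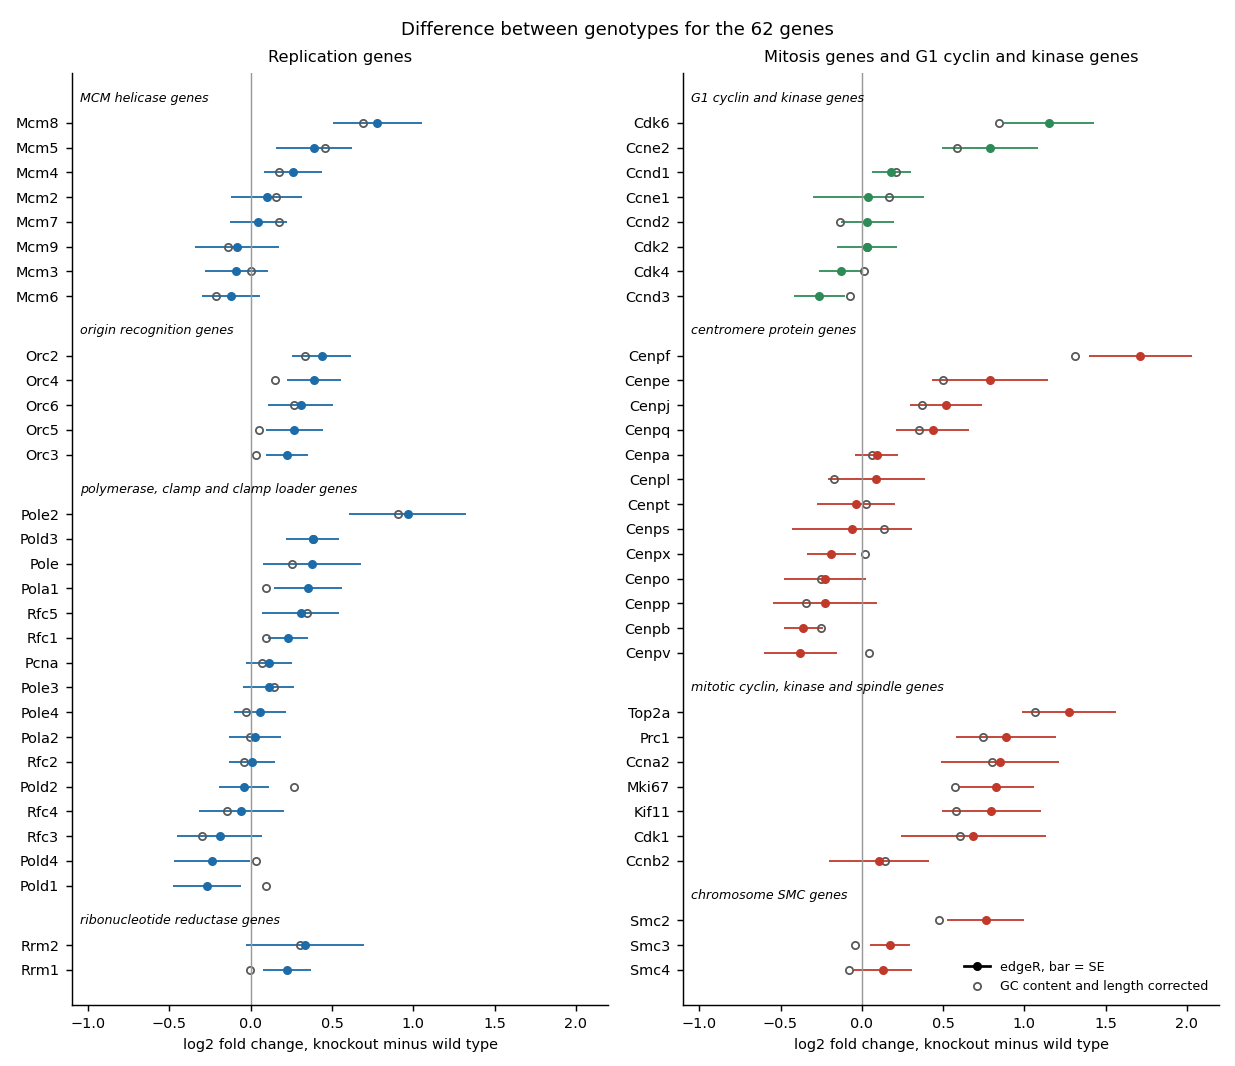
Log2 fold change (knockout minus wild type, x axis) of each of the 62 genes, with the replication genes on the left and the G1 and mitosis genes on the right, grouped by role. Filled points with bars are the edgeR value and its standard error, and open circles the value once base composition and length of the transcript were corrected for. Cenpf lies farthest from 0, at 1.71, and 0 of the 62 passed the test.

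Set class against class, replication and mitosis genes had similar medians. The median log2 fold change was 0.22 over the 31 replication genes, with 23 above 0, and 0.17 over the 23 mitosis genes, with 16 above 0, against -0.0045 over all 13384 genes, of which 49.4% were above 0. The difference of the medians, mitosis minus replication, was -0.051, within the spread of 0.15 (pooled SD, n = 3 per group) of the same difference among libraries. It was beyond that spread, with mitosis higher, once genes under a mean of 2 CPM were removed (0.31) and without wild-type replicate 3 (0.20), and its sign changed with the setting. At an unadjusted p under 0.05, 39.1% of the mitosis and 16.1% of the replication genes were higher, and 17.4% and 16.1% with GC content and length corrected. Inside the mitosis class the values ran from -0.38 to 1.71. All 7 mitotic cyclin, kinase and spindle genes lay above 0 (median 0.83), whereas 6 of the 13 centromere protein genes were above 0 with a median of -0.036. The replication genes ran from -0.27 to 0.96.

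Cenpf (chr1:189640606-189688107, GRCm38, RefSeq), which encodes a large kinetochore and nuclear matrix protein made in G2 and mitosis, had the largest difference of the set. Its CPM (depth-scaled count, with TMM size factors) was 31.5, 13.6 and 23.1 in knockout replicates 1, 2 and 3, and 6.63, 5.001 and 9.08 in the wild-type replicates in the same order. The lowest knockout library lay above the highest wild-type library. The means were 22.7 ± 8.99 CPM against 6.90 ± 2.05 CPM (SD, n = 3 each), a 3.28-fold difference (log2 fold change 1.71, SE 0.31, edgeR adjusted p = 0.0634). It passed without knockout replicate 2 (edgeR adjusted p = 0.0293), where 0.0822% of all genes passed as higher, and without wild-type replicate 2 (0.0477). Over all 16 alternatives its adjusted p ran from 1.07e-06 in DESeq2 to 0.300 without knockout replicate 3.

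Top2a (chr11:98992947-99024199), the topoisomerase that untangles chromosomes before they part, was at 7.51, 9.32 and 4.06 CPM in the knockout and 3.33, 2.75 and 2.56 CPM in the wild type. The groups did not overlap, and knockout replicate 3 lay close to the wild-type range. The fold difference was 2.42 (log2 fold change 1.28, SE 0.29, edgeR adjusted p = 0.0726, with a range over the 16 alternatives of 0.00308 to 0.218). Mki67 (chr7:135689784-135716450), whose protein Ki-67 coats mitotic chromosomes and is the usual marker of cycling cells, was at 10.1, 12.7 and 7.01 CPM against 6.71, 5.39 and 4.75 CPM. It had the same order of knockout libraries as Top2a, and the groups did not overlap. Its fold difference was 1.77 (log2 fold change 0.83, SE 0.23, edgeR adjusted p = 0.109, with a range over the 16 alternatives of 0.0312 to 0.372).

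Prc1, which bundles microtubules of the central spindle, was at 4.61, 7.20 and 3.22 CPM in the knockout and 3.13, 2.02 and 2.98 CPM in the wild type. Its groups did not overlap, but knockout replicate 3 and wild-type replicate 1 were nearly level. The difference of 0.89 (SE 0.31, edgeR adjusted p = 0.158) was 0.53 without knockout replicate 2. Ccna2, the cyclin of S phase and G2, was at 2.53, 4.24 and 1.41 CPM against 1.65, 1.40 and 1.51 CPM. Knockout replicates 1 and 2 were above all wild-type libraries and replicate 3 among them, and the log2 fold change of 0.85 (SE 0.36) was 0.38 without knockout replicate 2. Kif11, the motor that pushes spindle poles apart, was at 4.29, 4.08 and 2.25 CPM against 1.61, 2.09 and 2.39 CPM, with the same split (0.80, SE 0.30, edgeR adjusted p = 0.187).

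The kinase gene Cdk1, which drives entry into mitosis, rested on 1 animal. It was at 3.39, 1.50 and 0.84 CPM in the knockout and 1.03, 1.01 and 1.51 CPM in the wild type, so knockout replicate 1 was high and replicate 3 the lowest of all 6. The log2 fold change was 0.69 (SE 0.44, edgeR adjusted p = 0.417) and -0.021 without knockout replicate 1. Ccnb2, a partner cyclin of CDK1, was at 1.67, 2.12 and 1.10 CPM against 1.44, 1.55 and 1.57 CPM. The wild-type values lay inside the knockout range, and the difference of 0.10 (SE 0.31, edgeR adjusted p = 0.879) was smaller than its error.

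**Figure D2:**
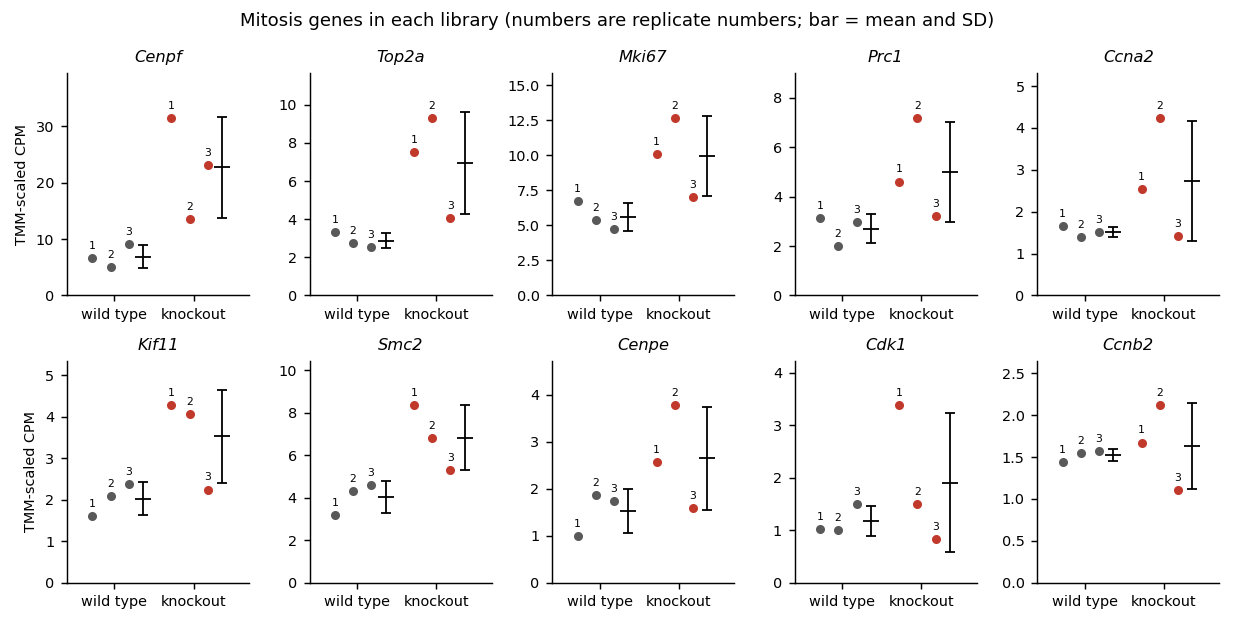
TMM-scaled CPM (y axis, from 0, a scale of its own in each panel) of 10 mitosis genes in the 3 wild-type (grey) and 3 knockout (red) libraries, labelled by replicate number, with the mean and SD beside them. Knockout replicate 3 is the lowest knockout library in 9 of the panels, and Cenpf is the exception, with replicate 2 lowest at 13.6 CPM.

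The SMC genes gave 1 higher value and 2 near 0. Smc2, the subunit that both condensins share, was at 8.37, 6.82 and 5.29 CPM in the knockout and 3.17, 4.303 and 4.59 CPM in the wild type. The groups did not overlap (log2 fold change 0.76, SE 0.24, edgeR adjusted p = 0.127). Its condensin partner Smc4 was at 0.13 (SE 0.18) and the cohesin gene Smc3 at 0.17 (SE 0.12), with overlapping groups for both.

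The centromere protein genes moved in no common direction. Cenpe, the kinesin that carries chromosomes to the spindle equator, was at 2.57, 3.79 and 1.59 CPM in the knockout and 0.99, 1.86 and 1.74 CPM in the wild type, so the groups overlapped (0.79, SE 0.36, edgeR adjusted p = 0.254). Cenpj, whose product builds centrioles and not centromeres, was at 6.62, 7.41 and 7.28 CPM against 4.61, 6.44 and 3.87 CPM. Its groups did not overlap, although wild-type replicate 2 came close, and the value of 0.52 (SE 0.22, edgeR adjusted p = 0.230) was 0.75 without that library. Cenpa, the histone variant that marks the centromere, was at 25.3, 28.4 and 26.8 CPM against 26.1, 23.2 and 26.2 CPM (0.092, SE 0.13, edgeR adjusted p = 0.731).

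Cenpb, which binds a short motif in centromeric satellite DNA, was the 1 member lower at an unadjusted p under 0.05. It was at 223, 226 and 208 CPM in the knockout and 284, 256 and 303 CPM in the wild type, and every knockout library lay below every wild-type library (log2 fold change -0.36, SE 0.12, edgeR adjusted p = 0.146). Among the genes of inner kinetochore subunits, Cenpq was at 0.43 (SE 0.22, edgeR adjusted p = 0.300), with wild-type replicate 2 inside the knockout range. The rest lay closer to 0, with Cenpl at 0.090, Cenpt at -0.036, Cenpx at -0.19, Cenpo at -0.22 and Cenpp at -0.23. Cenps, the least abundant in raw counts with a minimum of 12 in a library, was at -0.060 (SE 0.37). Cenpv had the lowest value of the set, -0.38 (SE 0.22, edgeR adjusted p = 0.370).

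In the replicative helicase, differences were small. The 6 genes Mcm2 to Mcm7, whose products form the ring that unwinds DNA, had a median of 0.072 and ran from -0.12 to 0.39. Mcm2 was at 7.64, 6.16 and 4.85 CPM in the knockout and 5.39, 6.51 and 5.54 CPM in the wild type, with the wild-type libraries inside the knockout range (0.098, SE 0.22, edgeR adjusted p = 0.834). Mcm5 was at 3.92, 5.20 and 3.88 CPM against 3.09, 3.76 and 3.08 CPM, and its groups did not overlap by a narrow margin (0.39, SE 0.23, edgeR adjusted p = 0.380). Mcm4 was at 0.26 (SE 0.18), with groups that did not overlap, and Mcm7 (0.047), Mcm3 (-0.089) and Mcm6 (-0.12) overlapped. Mcm8, a relative outside that ring that acts in repair of DNA by recombination, was at 2.74, 4.203 and 2.91 CPM against 2.14, 1.63 and 1.97 CPM. All its knockout libraries were above the wild type (0.78, SE 0.28, edgeR adjusted p = 0.163). Its partner Mcm9 was at -0.086 (SE 0.26).

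The 5 origin recognition genes were all above 0, from 0.22 to 0.44, with a median of 0.31. Orc2 was at 17.5, 14.1 and 18.2 CPM in the knockout and 10.5, 15.3 and 10.9 CPM in the wild type. Wild-type replicate 2 lay inside the knockout range, and without it the log2 fold change went from 0.44 (SE 0.18, edgeR adjusted p = 0.223) to 0.63 (0.0253). Orc4 was at 25.3, 22.9 and 21.5 CPM against 14.4, 21.6 and 17.2 CPM, and wild-type replicate 2 again touched the knockout range (0.39, SE 0.16, edgeR adjusted p = 0.225). Orc4 was at 0.56 without that library (adjusted p = 0.0269) and at 0.26 without wild-type replicate 1. Orc6 was at 0.31 (SE 0.20), with groups that did not overlap, and Orc5 (0.27) and Orc3 (0.22) overlapped. In the fit without wild-type replicate 2, 6 of the 62 passed as higher (Cenpf, Top2a, Cdk6, Cenpj, Orc2 and Orc4), where 7.25% of all genes did, and 2 as lower (Cenpb and Ccnd3), where 6.39% did.

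Among polymerase genes, Pole2, the second subunit of the leading-strand enzyme, was at 0.86, 1.66 and 1.46 CPM in the knockout and 0.78, 0.74 and 0.52 CPM in the wild type. Its groups did not overlap, with knockout replicate 1 close to the wild type (0.96, SE 0.36, edgeR adjusted p = 0.177), and its smallest raw count was 16. Pold3, an accessory subunit of the lagging-strand enzyme, was at 14.2, 11.2 and 12.96 CPM against 10.1, 10.04 and 9.24 CPM, again without overlap (0.38, SE 0.16, edgeR adjusted p = 0.228). Their catalytic partners were at 0.38 (SE 0.30) for Pole and -0.27 (SE 0.21) for Pold1, with overlapping groups for both. The other subunits of these enzymes, Pold2 (-0.040), Pold4 (-0.24), Pole3 (0.11) and Pole4 (0.059), overlapped between the groups. Of the polymerase that starts each strand with its primase, Pola1, the catalytic subunit, was at 0.35 (SE 0.21) and Pola2 at 0.028 (SE 0.16), also with overlap. Pcna, the sliding clamp gene, was at 23.3, 20.8 and 21.9 CPM against 17.99, 21.9 and 21.1 CPM, with overlapping groups (0.11, SE 0.14, edgeR adjusted p = 0.687). The 5 clamp loader genes had a median of 0.0098. Rfc1, the large subunit, was at 41.3, 45.7 and 44.5 CPM in the knockout and 35.4, 39.9 and 36.9 CPM in the wild type, without overlap (0.23, SE 0.12, edgeR adjusted p = 0.324). Rfc5 was at 0.31 (SE 0.24), also without overlap, whereas Rfc2 (0.0098), Rfc4 (-0.058) and Rfc3 (-0.19) overlapped.

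Ribonucleotide reductase makes the deoxynucleotides for replication. Its large subunit gene Rrm1 was at 16.1, 17.2 and 15.4 CPM in the knockout and 12.8, 13.5 and 15.4 CPM in the wild type, groups that met at their edge (0.23, SE 0.15, edgeR adjusted p = 0.421). Rrm2, the subunit made in S phase, was at 3.55, 2.54 and 1.81 CPM against 1.52, 3.26 and 1.51 CPM. Wild-type replicate 2 held a value among the knockout libraries, and the log2 fold change was 0.33 (SE 0.36) with it and 0.81 without it.

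**Figure D3:**
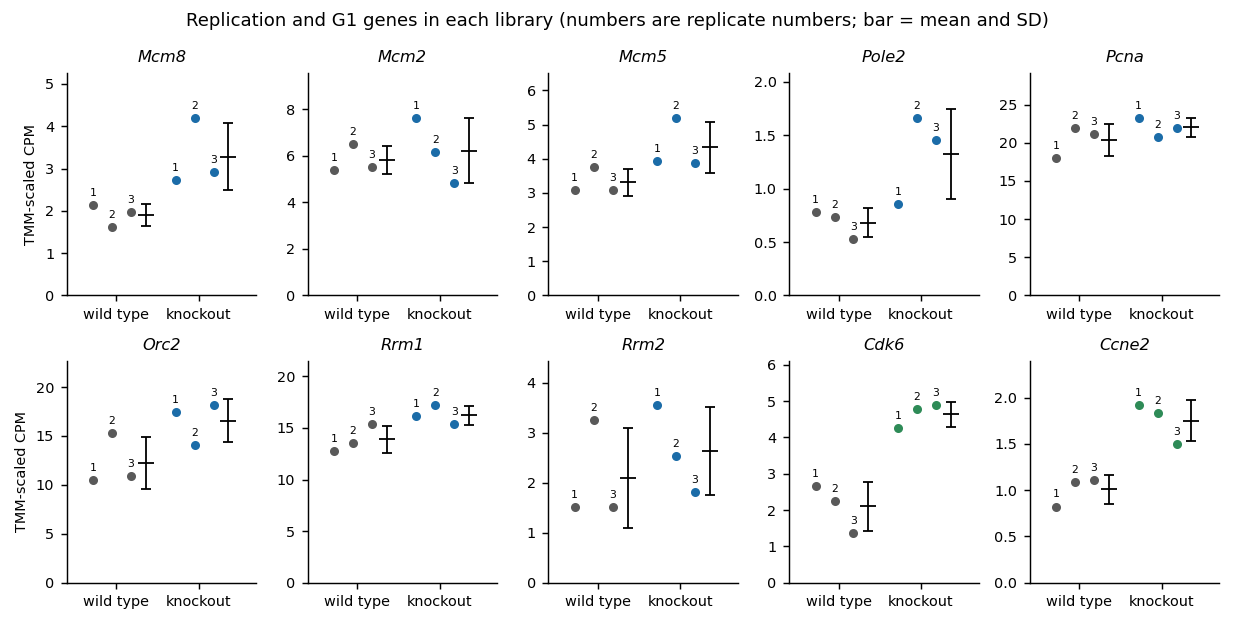
TMM-scaled CPM (y axis, from 0, a scale of its own in each panel) of 8 replication genes (blue knockout points) and 2 G1 genes (green knockout points) beside the 3 wild-type libraries (grey), labelled by replicate number, with mean and SD. Pcna and Mcm2 overlap between the groups, whereas Cdk6 keeps all 3 knockout libraries, at 4.25 CPM or more, above a wild-type maximum of 2.68 CPM.

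Of the G1 genes, Cdk6 (chr5:3341004-3531008), a kinase that cyclin D activates, was at 4.25, 4.79 and 4.89 CPM in the knockout and 2.68, 2.25 and 1.38 CPM in the wild type. The groups were far apart for their spread, 4.64 ± 0.347 against 2.10 ± 0.662 CPM (SD, n = 3 each), a 2.22-fold difference (log2 fold change 1.15, SE 0.28, edgeR adjusted p = 0.0795). Over the 16 alternatives the adjusted p ran from 0.00934 to 0.347. Ccne2, a cyclin of entry into S phase, was at 1.92, 1.83 and 1.50 CPM against 0.82, 1.09 and 1.11 CPM, also without overlap (0.79, SE 0.30, edgeR adjusted p = 0.182). Its paralog Ccne1 was at 0.040 (SE 0.34).

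The other genes of this group had smaller differences. Ccnd1 was at 94.7, 107 and 97.6 CPM in the knockout and 94.2, 84.9 and 84.5 CPM in the wild type, without overlap by a narrow margin (0.18, SE 0.12, edgeR adjusted p = 0.423). Ccnd2 averaged 153 ± 10.9 CPM against 149 ± 36.8 CPM (0.035, SE 0.16) and Cdk4 35.8 ± 2.90 CPM against 39.1 ± 4.89 CPM (-0.13, SE 0.14; SD, n = 3 each). Ccnd3 was at -0.26 (SE 0.16), and -0.42 without wild-type replicate 2 (edgeR adjusted p = 0.0297), and Cdk2, the partner kinase of cyclin E, at 0.033 (SE 0.19). Per kilobase of transcript, the mean level over all 6 libraries was 25.1 CPM for Ccnd1 and 23.9 CPM for Ccnd2, against 0.943 CPM for Top2a, 0.773 CPM for Mki67 and 0.353 CPM for Cdk1. Cenpb had the highest of the set (51.2 CPM per kilobase) and Cenpe the lowest (0.264).

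The libraries differed within the knockout group. The 7 mitotic cyclin, kinase and spindle genes together held 34.1, 41.2 and 19.9 CPM in knockout replicates 1, 2 and 3 and 18.9, 16.2 and 17.3 CPM in the wild type. Of these 7, 5 were highest in knockout replicate 2, 2 in replicate 1 and 0 in replicate 3. Cenpf followed another order, so its ratio to Top2a was 4.20, 1.46 and 5.68 in the knockout libraries and 1.99, 1.82 and 3.55 in the wild type. The 31 replication genes together held 382, 361 and 359 CPM in the knockout and 319, 336 and 338 CPM in the wild type, without overlap. Of this, the 5 origin recognition genes held 97.2, 86.3 and 96.1 CPM in the knockout and 68.8, 85.4 and 71.2 CPM in the wild type. Their sums and those of the 2 ribonucleotide reductase genes did not overlap. The sums of the 8 MCM helicase genes and of the 16 polymerase, clamp and clamp loader genes overlapped between the groups. The 23 mitosis genes together held 451, 446 and 399.7 CPM against 440.4, 431 and 483 CPM, with overlap. Of these sums Cenpb alone held 223, 226 and 208 CPM in the knockout and 284, 256 and 303 CPM in the wild type. It was lower in every knockout library, so 1 abundant gene weighs heavily on the class sum.

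**Figure D4:**
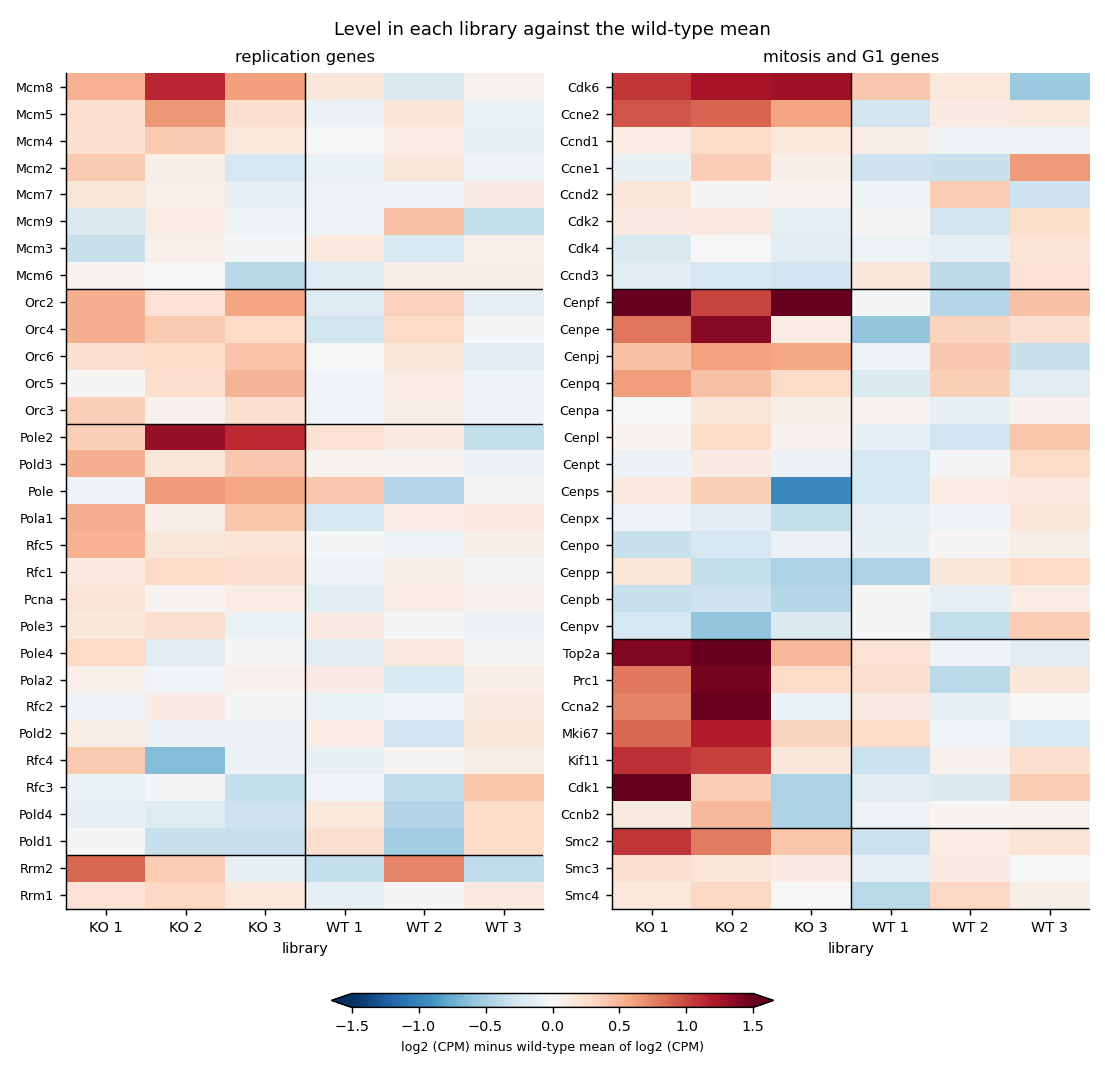
Log2 of the CPM of each gene in each library minus the mean of the 3 wild-type libraries (red higher, blue lower, colours capped at 1.5), for replication genes on the left and G1 and mitosis genes on the right, with lines between roles. The red block of Top2a, Prc1, Ccna2, Mki67 and Kif11 is strong in knockout replicates 1 and 2 and pale in replicate 3, while most replication genes are pale.

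The difference between the genotypes went with the base composition of the transcript, in these genes and in all genes. Over the 62 members the Pearson correlation of log2 fold change with GC content was -0.53, and over the 13106 genes with a value it was -0.47; the points share their libraries and are described without a test. With all genes split by GC content into 5 bins of equal size, the median log2 fold change was 0.20 in the lowest bin and -0.24 in the highest. Of the 20 members in the lowest bin 17 were above 0, and of the 7 in the highest bin 0 were.

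After correction for GC content and transcript length within each library, 12 of 62 members had an unadjusted p under 0.05, 11 higher, where 7.29% of all genes were, and 1 lower, where 6.77% were. The replication median went from 0.22 to 0.097 and the origin recognition median from 0.31 to 0.15. Mitosis genes had a median of 0.14, and the 7 mitotic cyclin, kinase and spindle genes 0.60. Cenpf was then at 1.31 (SE 0.41), Top2a at 1.07 (SE 0.31), Cdk6 at 0.85 (SE 0.25) and Mki67 at 0.57 (SE 0.24). Of the replication genes, Pole2 was at 0.91 (SE 0.37) and Mcm8 at 0.69 (SE 0.28). Ccna2 was at 0.80 (SE 0.37) and Prc1 at 0.74 (SE 0.33). The lower values of GC-rich members moved to near 0, with Cenpv from -0.38 to 0.043 and Pold1 from -0.27 to 0.092. Cenpb went from -0.36 to -0.25. How much of the trend is technical was not tested.

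**Figure D5:**
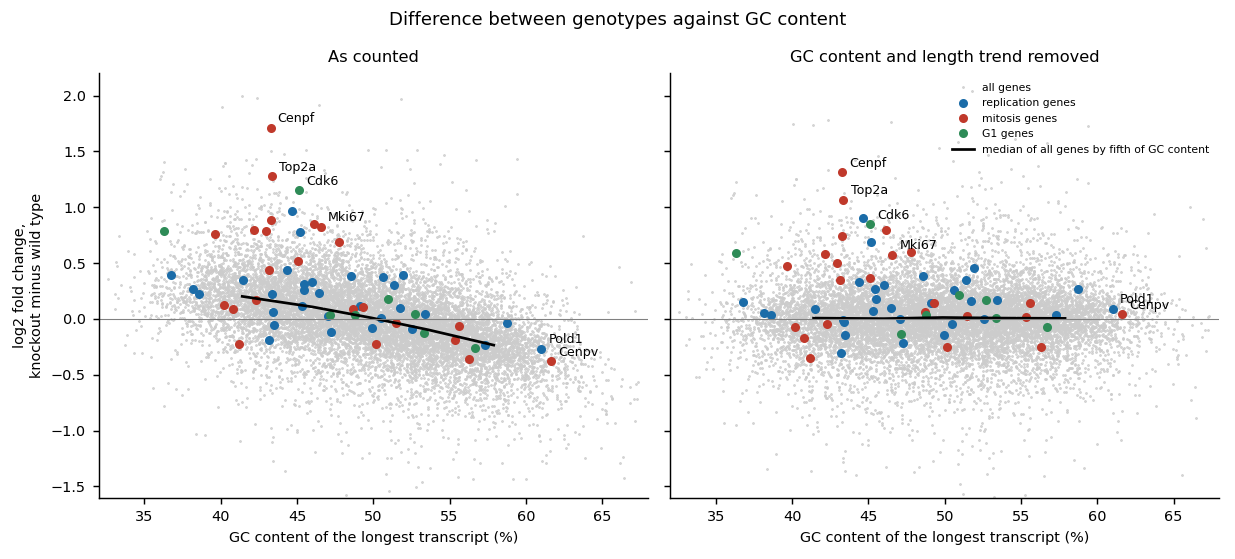
Log2 fold change (y axis, knockout minus wild type, drawn from -1.6 to 2.2) against the GC content of the longest transcript (x axis, percent) for all genes (grey) and the members (colours by class), as counted on the left and with the trend removed on the right; the line joins the medians of the 5 bins of all genes. The line falls from 0.20 to -0.24 on the left and is flat on the right. On the right, Cenpf, Top2a, Pole2 and Cdk6 remain above 0.8.

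Groups did not overlap, with the knockout higher, for 18 of 62 members (29.0%), where 11.8% of all genes did so, and with the knockout lower for 1, where 10.5% did. Of the 18, 9 were replication genes (Mcm4, Mcm5, Mcm8, Orc6, Pole2, Pold3, Rfc1, Rfc5 and Rrm1), 6 mitosis genes (Cenpf, Cenpj, Top2a, Mki67, Prc1 and Smc2) and 3 G1 genes (Cdk6, Ccne2 and Ccnd1). Cenpf, Top2a, Mki67 and Cdk6, 4 of the 62, had an unadjusted p under 0.05 in the main test and in all 16 alternatives, with the knockout higher, as did 2.79% of all genes. Reads of overlapping genes cannot be told apart, as the use of strand is not given in the sources used here. In the GENCODE M21 annotation (GRCm38), 13 of the 62 shared over 10% of their exonic bases with another gene, Orc2 with Nif3l1 (29.8%), Ccne2 with Ints8 (17.4%), Ccna2 with Exosc9 (12.5%) and Prc1 with Rccd1 (11.1%) among them, each on the opposite strand. Cenpf, Top2a, Mki67, Kif11, Cdk1, Smc2 and Mcm8 shared none.

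Of other genes of the cell cycle, in lists that do not overlap with the 62, 119 were measured. None passed the edgeR test, 25 were higher (21.01%, against 10.2% of all genes) and 0 lower at an unadjusted p under 0.05, and DESeq2 called 4, all higher, where it called 2.68% of all genes higher. With the GC content and length trend removed, 11 were higher, against 7.29% of all genes, and 1 was lower. The median log2 fold change was 0.20, and 0.17 with the trend removed. Of 35 other genes of the spindle, chromosomes and cytokinesis, 30 were above 0 with a median of 0.40, and 12 were higher at an unadjusted p under 0.05 (34.3%, against 10.2% of all genes). With the trend removed these became 4 of 35 (11.4%, against 7.29%) and the median 0.25. Kif23, a motor of cytokinesis, averaged 3.09 ± 0.899 CPM in the knockout against 1.62 ± 0.222 in the wild type (0.92, SE 0.29, edgeR adjusted p = 0.130). Aspm, a protein of spindle poles, was at 2.43 ± 0.490 against 1.14 ± 0.456 CPM (1.09, SE 0.34, edgeR adjusted p = 0.130), and the condensin II gene Ncapd3 at 18.9 ± 1.38 against 13.7 ± 1.94 CPM (0.47, SE 0.15; SD, n = 3 each).

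Of 18 other kinetochore and checkpoint genes, 14 were above 0 with a median of 0.29. At an unadjusted p under 0.05, 2 were higher (11.1%, against 10.2% of all genes). This became 1 of 18 (5.56%, against 7.29%) with the GC content and length trend removed. Sgo2a, a shugoshin that protects centromeric cohesion, was at 12.2 ± 1.79 against 6.87 ± 0.397 CPM (0.83, SE 0.18, edgeR adjusted p = 0.0643), the smallest adjusted p of the 119. Mad2l1, a checkpoint gene, was at 0.63 (SE 0.24) and Spc25 at 0.65 (SE 0.34). They were at 0.27 and 0.57 with the trend removed. Of 22 other genes of origin firing and the fork, 18 were above 0 with a median of 0.10. Among them 2 (9.09%) were higher at an unadjusted p under 0.05, before and after the trend was removed. The kinase gene Cdc7 (1.79 ± 0.219 against 0.900 ± 0.113 CPM; 1.00, SE 0.29, edgeR adjusted p = 0.117) and its activator Dbf4 (2.02 ± 0.164 against 1.16 ± 0.114 CPM; 0.80, SE 0.28, edgeR adjusted p = 0.159) both had groups that did not overlap. Wdhd1 was at 0.63 (SE 0.30). The 6 nucleotide supply genes had a median of 0.080, with Rrm2b at 0.16 (SE 0.17) and Dtymk at -0.14 (SE 0.16).

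Which cells held these transcripts cannot be read from whole ventricle, where more cycling cells and more RNA per cell cannot be told apart. All 7 heart muscle markers were measured, with a summed level of 52458 to 71982 CPM over the libraries, Myh6 leading. Markers of macrophages, 8 of 8 measured and 5 above 0, summed to 228 to 258 CPM in the knockout and 195 to 223 CPM in the wild type, without overlap. These markers went in both directions, with log2 fold changes from -0.69 to 0.91, and C1qa was the most abundant. In knockout replicates 1, 2 and 3 the sums were 228, 248 and 258 CPM. Of 10 T, B and NK cell markers 2 were measured, at 14.5 to 18.4 against 9.43 to 13.1 CPM. The 2 went opposite ways (log2 fold changes -0.26 and 0.55), and Ptprc was the more abundant. Cd3e, Cd3d, Cd4, Cd8a and Nkg7 had no row in the count table, so the sum does not single out T or NK cells. Fibroblast markers, 7 of 7 measured and 0 above 0, summed to 1019 to 1188 CPM in the knockout and 1132 to 2021 CPM in the wild type. Their median log2 fold change was -0.39, and 0.047 without wild-type replicate 2, the library at 2021 CPM. Endothelial markers, 2 of 7 above 0, summed to 941 to 1157 against 1008 to 1463 CPM. Markers of the mural cells of vessels, 2 of 7 above 0 with a median of -0.36, summed to 594 to 639 against 562 to 709 CPM. Red cell markers, 4 of 6 measured and 0 above 0 with a median of -0.66, summed to 224 to 298 against 251 to 664 CPM. Mesothelial markers, 4 of 5 measured and 1 above 0, summed to 13.5 to 19.5 against 23.6 to 49.4 CPM, lower in every knockout library. The part of these cells in the values of the 62 genes was not tested.

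Some libraries stood apart in their make-up. The 6 activated fibroblast markers summed to 1026 CPM in wild-type replicate 2 and to 275 to 373 CPM in the other 5, and the 4 atrial muscle markers to 760.5 CPM in wild-type replicate 1, to 51.6 CPM in replicate 2 and 80.2 CPM in replicate 3 of that group, and to 35.3 to 45.0 CPM in the knockout. Without wild-type replicate 2 the mitosis median was 0.30 and the replication median 0.20, and without wild-type replicate 1 they were 0.12 and 0.17.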

How the data were processed

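RNA of 6 left ventricles was sequenced, and the authors deposited 1 table of raw counts per gene. Per the submitters' processing notes, mm10 and DESeq2 were used; aligner, counter, annotation and strand setting were not given in the sources used here. Every gene had at least 12 counts in every library. The test was that of edgeR 4.0.16 under R 4.3.3 (quasi-likelihood, robust, TMM size factors), 3 knockout against 3 wild-type libraries, two-sided, with Benjamini-Hochberg adjustment over all 13384 genes and a threshold of 0.05; the tool's filter removed 0 genes. Standard errors come from the test statistic. GC content and length are those of the longest GENCODE M21 transcript, found for 97.9% of genes, and the trend was fitted by splines with 4 degrees of freedom. Members and lists were chosen with earlier results of these data known. Values are given for members with an unadjusted p under 0.05 and for a fixed set of 15 well-known genes (Ccnb1 was not analysed here), and for the 3 genes of smallest p in each other list, of which 1 is not reported here; further members were named after their values were seen. Alternatives were other size factors, filters and tests (DESeq2 1.42.0, limma-voom 3.58.1), no robust estimation, the GC content and length correction, a replicate block, and leaving out single libraries. Samples with the same replicate number did not deviate together. In 3 simulations of this comparison over 13384 genes, edgeR found 14.4% of the genes set to a log2 change of 0.5, 80.0% at 1 and 98.0% at 2, and 8.35% of its calls were false. DESeq2 found 22.4%, 83.0% and 96.5%, and 14.3% of its calls were false. The simulated counts were drawn gene by gene with no GC content trend, and 200 changed genes were taken at random from all genes. These shares need not hold for the members or for the real libraries. The common biological coefficient of variation was 0.166.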

Additional observations from a re-analysis of the deposited data

How the results depend on the processing

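Over 16 alternatives the count of all genes called, 15 in the main test, was 618 in DESeq2, 218 with the replicate block, 45 with the GC content and length correction, 27 with both, and 0 (without knockout replicate 3) to 1826 (without wild-type replicate 2) with a library left out. The count of members called, 0 in the main test, was 4 in DESeq2 and 3 with the replicate block (Cenpf, Top2a and Cdk6), and ran from 0 to 8 with a library left out. The replicate numbers are not said to pair the animals, and deviations of same-numbered libraries correlated at -0.12, -0.076 and -0.15. With so few libraries these correlations cannot show whether animals were paired. The 17 members at an unadjusted p under 0.05 became 6 under the GC content and length correction with the replicate block (13.2% of all genes), and 9 to 22 with a library left out, with 9 both without knockout replicate 1 (14.5% of members, 13.7% of all genes) and without knockout replicate 2 (14.5% and 17.1%); these counts were added after seeing the data. The replication median was 0.097 with the correction and 0.096 with the block as well, and 0.081 (without knockout replicate 1) to 0.21 with a library left out. With genes under a mean of 2 CPM removed, which leaves 18 of the 23 mitosis genes, the mitosis median was 0.48 and the difference of the medians 0.31. With a library left out they ran from 0.12 to 0.33 and from -0.051 to 0.20, so the sign of the difference is not fixed. Of the 46 genes examined singly, none was called in the main test; under the correction Rrm1 was at -0.0071, Cdk4 at 0.012, Ccnd2 at -0.13 and Rrm2b at -0.082, and with the block as well Cdk4 was at 0.014, Ccnd2 at -0.12 and Rrm2b at -0.084. The sign also turned with a library left out for Mcm2 (-0.078 to 0.25), Ccnd2 (-0.11 to 0.25), Cdk1 (-0.021 to 1.04) and Ccnb2 (-0.13 to 0.32). The cause was not tested. The smallest counts in a library were 12 for Cenps, 16 for Pole2 and 19 for Cdk1, which limits the precision of these genes.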

Other observations

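Other groups of genes gave values beside the replication and mitosis genes. Of 10 other genes of the centrosome, listed beside Cenpj, 7 had values above 0. Their median was 0.23 on the log2 scale, and 0.079 with the GC content and length trend removed. Cep135, a structural protein of centrioles, was at 9.08 ± 2.34 CPM in knockout and 5.14 ± 0.719 CPM in wild-type hearts (0.82, SE 0.22, edgeR adjusted p = 0.101; n = 3 each) with groups that did not overlap. Cep192 was at 0.53 (SE 0.21) and Ninl at -0.62 (SE 0.31).

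Of 28 genes of the E2F and RB families, MuvB and the cell cycle inhibitors, 15 were above 0 with a median of 0.0085, and 7 were higher (25.0%, against 10.2% of all genes) and 0 lower (against 8.94%) at an unadjusted p under 0.05. With the GC content and length trend removed, 3 of 28 were higher (10.7%, against 7.29% of all genes). Wee1, the kinase that holds CDK1 inactive before mitosis, was at 21.6 ± 6.15 against 12.7 ± 2.64 CPM (0.76, SE 0.21, edgeR adjusted p = 0.108; n = 3 each). Tfdp2, a dimer partner of E2F, was at 93.0 ± 9.20 against 68.4 ± 5.42 CPM (0.44, SE 0.13, edgeR adjusted p = 0.110), and 0.20 with the GC content and length trend removed. Lin54, the MuvB subunit that binds the CHR element, was at 10.2 ± 0.689 against 7.14 ± 0.0592 CPM (0.51, SE 0.17, edgeR adjusted p = 0.140), and 0.29 with the trend removed.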
